A study of Homo sapiens with 9 samples.

Results

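Radioresistant glioblastoma stem cells (GSCs) were compared with the parental U87 line from which they derive, using the 3 GSC and the 3 U87 libraries among the 9 RNA-seq libraries of the series. The members were taken by library name: U87GSC-1, U87GSC-2 and U87GSC-3 against U87WT-1, U87WT-2 and U87WT-3. U87 is a long-established line of human glioblastoma cells, grown here in medium with 10% fetal bovine serum and not irradiated. The GSCs were kept in serum-free DMEM/F12 with B27, EGF at 20 ng/ml and bFGF at 20 ng/ml, and had received 13 cycles of 5 Gy irradiation. The other 3 libraries are from Diff cells, the progeny of the irradiated GSCs returned to 10% serum, and their values are set beside some genes only to show a level. Medium, growth form and irradiation history all differ between the GSCs and U87, and every library goes back to 1 cell line, so the effects of serum withdrawal, growth factors, sphere growth and radiation cannot be told apart. The labels do not say whether replicates were separate cultures, and the p-values therefore measure only the spread between these libraries, which may be technical.

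Serum-free medium with EGF and bFGF was devised to keep neural stem cells undifferentiated, and glioblastoma cells placed in it tend to detach and grow as spheres. The change removes more than differentiation cues. Serum brings lipoprotein cholesterol, attachment factors, lysophospholipids and bone morphogenetic proteins (BMPs), whereas B27 brings insulin, transferrin, albumin, selenium, a corticosteroid, progesterone and retinyl acetate. Several gene programs report on such inputs: sterol synthesis genes are switched on by SREBP2 when cellular cholesterol is low, the ID genes are switched on by BMP signaling, amino acid transport and synthesis genes by ATF4, and glycolytic genes by HIF1 and MYC.

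Values are TPM, transcripts of a gene per 1000000 after division by gene length, so levels can be compared between genes but sequencing depth is not kept. Of 60606 genes, 23170 had a mean TPM over 1 in the 6 libraries and were tested on log2(TPM + 1). Between libraries of a line, the median SD of a tested gene on that scale was 0.13 in U87 and 0.19 in GSCs. A gene was called when its limma adjusted p was under 0.05 and its absolute log2 fold change over 1. By that rule 2232 genes were higher in GSCs (9.63% of those tested) and 1801 lower (7.77%). Counts of calls in the gene lists below are to be read beside these shares. Among 12355 protein-coding genes, 1074 were higher (8.69%) and 955 lower (7.73%). Every GSC library lay above every U87 library for 6763 of the 23170 tested genes and below for 6195, so separation of the libraries alone was common. The median log2 fold change over all tested genes was 0.01. Spearman's rho across genes was 0.956 to 0.957 between U87 libraries, 0.946 to 0.955 between GSC libraries, and 0.82 to 0.837 between libraries of the 2 lines. RN7SL1, a signal recognition particle RNA, took 8.77% to 9.79% of TPM in U87 and 5.73% to 7.84% in GSCs, and mitochondrial genes took 25.9% to 28.8% and 27.9% to 30.8%. The 1066 tested genes of chromosome 7 stood at a median of 0.49 on the log2 scale, against medians of -0.18 to 0.14 on the other chromosomes, and its part in the changes of single genes there was not tested. Medians of the neighbours of a gene, the 10 tested genes on each side, are given for some genes only. Their part in the changes was likewise not tested. Where a gene is followed by 2 TPM values joined by "to", they are the means of the 3 U87 and of the 3 GSC libraries, in that order. All fold changes are on the log2(TPM + 1) scale, which understates the change of genes near 0 TPM.

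The label of stem cell was first set against 32 markers of neural and glioma stem cells. Of the 23 that were tested, 2 were called higher (8.7%, near the 9.63% of all genes) and 4 lower (17.4%), with a median log2 fold change of 0.08. POU3F2, a neural transcription factor, had 0.154, 0.207 and 0.181 TPM in the U87 libraries and 3.27, 2.81 and 3.68 TPM in the GSC libraries. FABP7, the brain lipid binding protein of radial glia, had 0.546, 0.986 and 0.662 TPM in the U87 libraries and 4.38, 4.52 and 5.82 TPM in the GSC libraries. These 2 genes were low in both lines and did not overlap between them. Their U87 means were 0.181 and 0.731 TPM, so both passed the filter through the GSC libraries alone. The count of higher calls is therefore no test of the label. SOX9, a transcription factor of glial and neural progenitors, went the other way, with 45.6, 37.7 and 50.1 TPM in the U87 libraries and 7.54, 7.85 and 8.17 TPM in the GSC libraries, a log2 fold change of -2.35 (SE 0.13, adjusted p = 1.39e-06). BMI1, a polycomb protein of stem cell self-renewal, fell from a mean of 20.9 to 6.87 TPM, the laminin receptor subunit ITGA6 from 6.48 to 1.62 TPM, and KLF4 from 10.3 to 3.35 TPM. Over the 10 tested genes on each side of BMI1 the median was -1.04, in the same direction. Beside SOX9 it was 1.27, in the opposite direction to SOX9. SOX2 and PROM1 (CD133), both widely used to define GSCs, were below the filter and were not tested. SOX2 was listed at 0, 0.115 and 0 TPM in the U87 libraries and 0.809, 0.833 and 0.994 TPM in the GSC libraries, and PROM1 at 0.121, 0.155 and 0.238 TPM in the U87 libraries and 0.545, 0.596 and 0.38 TPM in the GSC libraries. Both were higher in every GSC library, at levels under 1 TPM. The study based stemness on immunofluorescence of CD133, SOX2 and FABP7 in GSCs and U87. That staining shows protein, which the mRNA values here do not measure. NES, the intermediate filament nestin, had 33 ± 2.22 TPM in U87 cells and 22.6 ± 0.812 TPM in GSCs (SD, n = 3), a log2 fold change of -0.53 that missed the fold threshold. MYC had 67 ± 2.82 TPM in U87 cells and 131 ± 18.2 TPM in GSCs, just under that threshold at 0.94. OLIG2 (7.27 to 8.75 TPM), PAX6 (1.9 to 2.16 TPM) and CD44 (405 to 427 TPM) overlapped between the lines. SOX1, HES5, NR2E1, NANOG, MSI1 and L1CAM had means under 0.1 TPM in both lines.

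**Figure D1:**
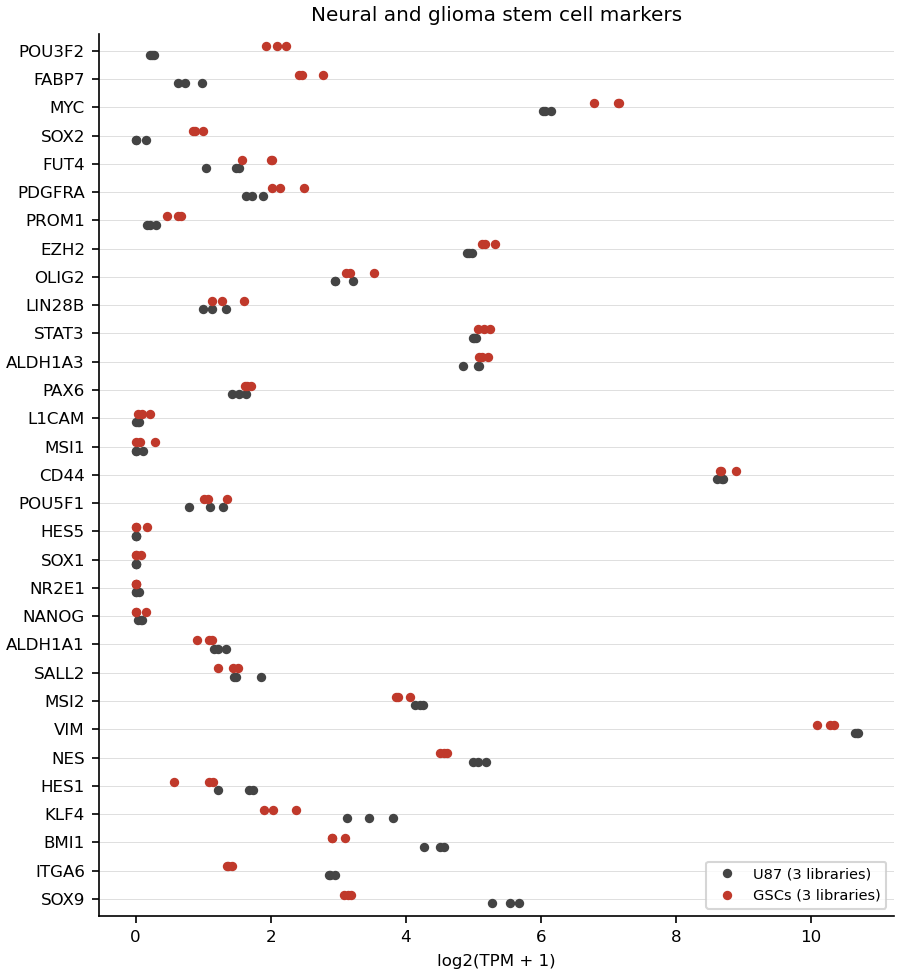
TPM of neural and glioma stem cell markers in each library, on an axis of log2(TPM + 1), with 1 point per library and U87 and GSCs in separate colours. SOX2 and PROM1 are under 1 TPM in both lines and higher in every GSC library than in U87. POU3F2 and FABP7 are higher in GSCs, and SOX9, BMI1, ITGA6 and KLF4 are lower.

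Markers of differentiated brain cells and of other cell types were mostly near 0. Of 18 neuronal markers 7 were tested, with SYN1, a synaptic vesicle protein, called higher (1.36 to 8.17 TPM) and the axon growth protein GAP43 (9.37 to 0.136 TPM) and the vesicle fusion protein SNAP25 (14.5 to 2.95 TPM) lower. TUBB3 had 3.74 ± 0.639 TPM in U87 cells and 4.66 ± 0.649 TPM in GSCs (SD, n = 3) and overlapped between the lines. STMN2 and SLC17A6 were listed at 0 in all 6 libraries, and DCX, RBFOX3, ELAVL4 and NEFL stayed under 0.2 TPM. Among 11 astrocyte markers, AQP4 was listed at 0 in all 6 libraries and GFAP had 2.57, 2.0 and 2.29 TPM in the U87 libraries and 0.659, 0.862 and 0.904 TPM in the GSC libraries, not called but past the threshold with log2(TPM + 0.1), at -1.40. The astrocyte marker called higher was GLUL, the glutamine synthetase, with 7.47, 7.69 and 7.06 TPM in the U87 libraries and 51.2, 49.2 and 44.6 TPM in the GSC libraries. No tested oligodendrocyte marker was called. Of 12 leukocyte markers 2 were tested, TYROBP was listed at 0, PTPRC had means of 0.0803 and 0.0829 TPM, and the receptor CSF1R fell from 15 to 4.68 TPM. Endothelial markers had a summed level of 13.2 to 15.8 TPM in U87 and 35.5 to 41.1 TPM in GSCs, with 4 of 10 tested. VWF, the clotting factor of endothelium, rose from 0.527 to 11.4 TPM and the VEGF receptor KDR from 5.97 to 17.3 TPM, while CDH5, which defines endothelial junctions, had means of 0.223 and 0.312 TPM in U87 and GSCs. Of 3 tested epithelial markers KRT8 was lower (3.6 to 1.12 TPM), and KRT14 and GRHL2 were listed at 0. The fibroblast and pericyte list held 3 called genes of 7 tested, COL1A1 and PDGFRB lower and FAP higher, and THY1, DCN and POSTN were under 0.3 TPM.

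The largest increases included secreted proteins whose transcripts were at very low levels in U87. EDN1, which encodes endothelin-1 (GRCh38 chr6:12290363-12297194), had 0.519, 0.496 and 0.622 TPM in the U87 libraries and 193, 177 and 219 TPM in the GSC libraries. The means differ 360.2-fold, with a log2 fold change of 6.99 (SE 0.10, adjusted p = 3.31e-09). The libraries of the 2 lines were far apart, and Diff cells lay between them at 40.1, 41 and 33.1 TPM. FBLN5, an elastic fibre protein (chr14:91869412-91947987), had 0.778, 0.506 and 0.653 TPM in the U87 libraries and 142, 142 and 142 TPM in the GSC libraries, and in Diff cells 47.4, 49.2 and 45.2 TPM. MMP3, the matrix protease stromelysin-1, had 10.5, 7.39 and 8.47 TPM in the U87 libraries and 582, 477 and 582 TPM in the GSC libraries. NOS3, the endothelial nitric oxide synthase, rose from a mean of 0.0738 to 43.2 TPM, so that genes for a vasoconstrictor and for the enzyme of a vasodilator both stood among the 15 largest increases. PI3, the elastase inhibitor elafin (1.5 to 168 TPM), and SERPINB4, a serpin of squamous epithelia (0.408 to 43.5 TPM), are further protease inhibitors in this group, and in Diff cells PI3 was at 1.05, 0.992 and 1.0 TPM. TDRD9, a helicase of germline transposon silencing, had 0.0825, 0.0263 and 0.0692 TPM in the U87 libraries and 85.2, 82.6 and 85.6 TPM in the GSC libraries. The others were the retinol dehydrogenase RDH8 (0.238 to 67.5 TPM), the transporter SLC22A25 (0.0584 to 38.5 TPM), the cation channel TRPV3 (0.737 to 56.1 TPM), the small GTPase DIRAS2 (0.0416 to 32.8 TPM), the PI3K-gamma regulatory subunit PIK3R6 (0.0282 to 31.6 TPM), and PSG1, PSG3 and PSG8, pregnancy-specific glycoproteins normally made by the placenta. NOS3 lies on chromosome 7.

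**Figure D2:**
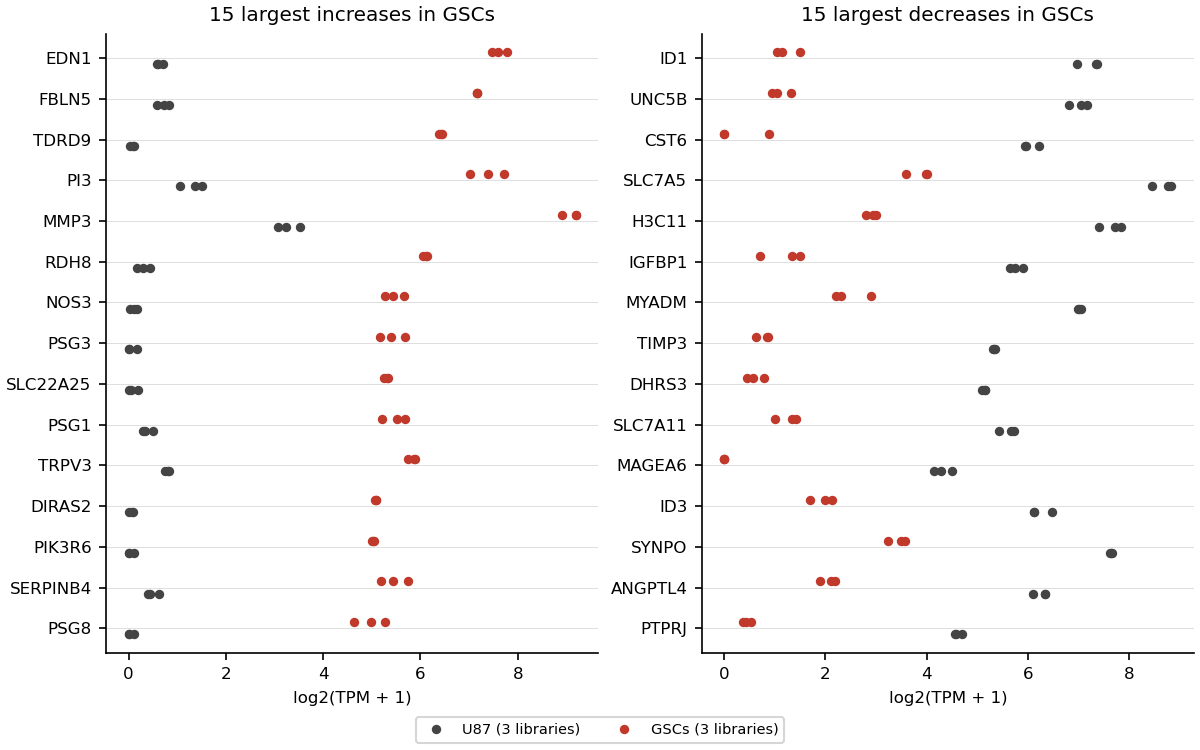
The 15 protein-coding genes with the largest increase and the 15 with the largest decrease in GSCs against U87 among called genes whose libraries did not overlap, as log2(TPM + 1) with 1 point per library. EDN1 heads the increases at a log2 fold change of 6.99 and ID1 the decreases at -6.00.

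The pregnancy-specific glycoprotein genes, looked at as a family after their values were seen, form a cluster on chromosome 19. All 10 in the table passed the filter, some of them through the GSC libraries alone, so no count of calls is given. Their log2 fold changes ran from 3.42 to 5.35. PSG1 (chr19:42866464-42879822) had 0.426, 0.262 and 0.23 TPM in the U87 libraries and 44.7, 50.3 and 36.1 TPM in the GSC libraries. PSG3 had 0.133, 0 and 0 TPM in the U87 libraries and 41, 50.3 and 34.8 TPM in the GSC libraries. Across the family U87 means ran from 0.0246 to 2.61 TPM and GSC means from 18.1 to 50.9 TPM. These genes are near copies of each other, and how reads were shared among them by the counting is uncertain. The beta-defensin genes, small antimicrobial peptides also examined after their values were seen, included DEFB105A at 0.0329 to 20.4 TPM and DEFB104B at 0 to 18.4 TPM, and they too are duplicated. Of these, 39 were listed and 14 passed the filter, with U87 means from 0 to 3.82 TPM and GSC means from 1.91 to 33.3 TPM. Some passed through the GSC libraries alone, so no count of calls is given for this family. Of 12 melanoma antigen genes of the MAGEA family 3 passed the filter, each through its U87 level, and MAGEA6 was at 18.5, 16.6 and 21.7 TPM in U87 and listed at 0 in the 3 GSC libraries.

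Going by strict levels, 35 of 12355 tested protein-coding genes had a mean under 0.1 TPM in U87 and over 5 TPM in GSCs, and 4 the reverse. Each passed the filter through the line where it was high, and the 35 include near copies, so the counts are not compared. The genes off in U87 included, beside PSG and DEFB genes, DIRAS2, the postsynaptic scaffold SHANK2 (0.0556 to 10.8 TPM), the neuronal growth regulator BRINP1 (0.0254 to 22.6 TPM) and the potassium channel KCND2 (0.074 to 5.34 TPM). HRK, a BH3-only activator of cell death, had 0.11, 0.0421 and 0.0924 TPM in the U87 libraries and 27.9, 28.5 and 27.2 TPM in the GSC libraries, with 23.8, 21.3 and 23.9 TPM in Diff cells. CD5L, a secreted protein of macrophages, was listed at 0 in the U87 libraries and had 10.4, 10.4 and 9.57 TPM in the GSC libraries. SERPINB3 (0.0495 to 16.7 TPM) lies beside its near copy SERPINB4, so the split between them is uncertain. ZNF671 (0.0926 to 5.91 TPM), MAT1A (0.0252 to 8.12 TPM), KLK1 (0.0423 to 8.03 TPM) and ELMO1 (0.0291 to 8.33 TPM) also belonged here. The 4 that went off in GSCs were MAGEA6, the transcription factor TP73 (5.4 to 0.0415 TPM), the formyl peptide receptor FPR1 (13.9 to 0.059 TPM) and CGB8, a chorionic gonadotropin subunit with near copies (7.1 to 0.0491 TPM). FPR1 had 13.7, 11.3 and 16.8 TPM in the U87 libraries and 0.112, 0 and 0.0644 TPM in the GSC libraries.

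The largest decreases were headed by ID1, an inhibitor of basic helix-loop-helix factors and a direct BMP target (chr20:31605283-31606515). It had 161, 124 and 166 TPM in the U87 libraries and 1.06, 1.8 and 1.22 TPM in the GSC libraries, a log2 fold change of -6.00 (SE 0.16, adjusted p = 3.56e-08). The Diff libraries had 19.5, 26.6 and 24.6 TPM. UNC5B, a netrin receptor (chr10:71212570-71302864), had 143, 131 and 112 TPM in the U87 libraries and 1.49, 1.07 and 0.925 TPM in the GSC libraries and stayed low in Diff cells at 1.94, 2.26 and 3.16 TPM. CST6, a cysteine protease inhibitor, had 73.9, 61.9 and 60.5 TPM in the U87 libraries and 0, 0 and 0.844 TPM in the GSC libraries. SLC7A5, the large neutral amino acid transporter LAT1, had 458, 436 and 353 TPM in the U87 libraries and 14.8, 15.1 and 11 TPM in the GSC libraries, a log2 fold change of -4.83 in a gene abundant in U87. DHRS3, a retinaldehyde reductase, had 34.9, 33 and 34.5 TPM in the U87 libraries and 0.372, 0.484 and 0.71 TPM in the GSC libraries, and in Diff cells 37.3, 33.5 and 35.3 TPM, a level close to that of U87. TIMP3, the matrix-bound metalloprotease inhibitor (39.2 to 0.719 TPM), and MYADM (129 to 4.68 TPM) were by contrast still lower in Diff cells, at 0.126, 0.0891 and 0.090 and 0.108, 0.254 and 0.16 TPM. The rest of the 15 were the histone gene H3C11 (202 to 6.55 TPM), the IGF binding protein IGFBP1 (53.7 to 1.32 TPM), the cystine transporter SLC7A11 (48.1 to 1.39 TPM), ID3 (75.3 to 2.87 TPM), the actin-associated protein SYNPO (199.7 to 9.87 TPM), the lipoprotein lipase inhibitor ANGPTL4 (76.3 to 3.19 TPM), the receptor phosphatase PTPRJ (23.6 to 0.364 TPM) and MAGEA6. The neighbours of SYNPO had a median of -1.03.

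By amount of transcript, the gain was led by ferritin light chain. FTL had 9794, 10937 and 8774 TPM in the U87 libraries and 34164, 32195 and 27426 TPM in the GSC libraries. VGF, a secreted precursor of neuropeptides (chr7:101162509-101165593), had 81, 80 and 65.6 TPM in the U87 libraries and 1956, 2249 and 1788 TPM in the GSC libraries, a log2 fold change of 4.71, and stood at 992, 1139 and 984 TPM in Diff cells. CSTB, an inhibitor of lysosomal cathepsins, rose from 375 to 1998 TPM, AHNAK2 from 362 to 1502 TPM, TFPI2, a serine protease inhibitor of the matrix, from 367 to 1506 TPM, the membrane collagenase MMP14 from 593 to 1776 TPM and the mRNA decay factor ZFP36L1 from 952 to 2174 TPM. COL6A2 (1083 to 2082 TPM) and FTH1 (1767 to 2739.9 TPM) gained many transcripts without reaching the fold threshold. VGF and TFPI2 lie on chromosome 7. Losses by amount included genes of the actin cytoskeleton and glycolysis. ACTB had 6258, 6126 and 5992 TPM in the U87 libraries and 3496, 3718 and 3519 TPM in the GSC libraries, and TMSB10, an actin monomer binding protein, 6399.6, 5923 and 6988 TPM in the U87 libraries and 4285, 4252 and 3740.3 TPM in the GSC libraries. Neither reached the fold threshold. TGFBI, a matrix protein induced by TGF-beta, fell from 795 to 66 TPM and was at 568, 539 and 517 TPM in Diff cells. LGALS1 (5164 to 3350.5 TPM) and SH3BGRL3 (3917 to 2971 TPM) also lost transcripts without a call, and the glycolytic enzymes among the 10 largest losses are given with their pathway.

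Genes of cholesterol synthesis and uptake rose together: 14 of 25 were called higher against 1 lower, 24 of 25 lay above 0, and the median log2 fold change was 1.53. Their summed level was 1028 to 1179.5 TPM in the U87 libraries and 3138 to 3218 TPM in the GSC libraries. Among the regulators, INSIG1, the sterol sensor partner that holds SREBP in the endoplasmic reticulum, had 205, 242 and 185 TPM in the U87 libraries and 957, 942 and 931 TPM in the GSC libraries (log2 fold change 2.17, SE 0.09, adjusted p = 2.76e-07). INSIG1 lies on chromosome 7, where its neighbours had a median of 0.64. Among the enzymes, ACAT2, which forms acetoacetyl-CoA at the start of the pathway, had 6.63, 7.05 and 5.85 TPM in the U87 libraries and 45.9, 44.8 and 50.5 TPM in the GSC libraries. The late enzymes moved as far: SC5D, the sterol C5 desaturase, rose from 3.93 to 33.4 TPM, TM7SF2, a sterol C14 reductase, from 2.24 to 18.6 TPM, and HSD17B7 from 5.96 to 31.4 TPM. The neighbours of SC5D had a median of 0.80. HMGCS1, MSMO1, DHCR7, MVD, SQLE, FDFT1 and LSS were also called, with log2 fold changes of 1.53 for LSS, the lanosterol synthase, to 2.04 for MSMO1. PMVK, phosphomevalonate kinase, was the exception, at 31.3 to 12.9 TPM and -1.22. The regulator SREBF2 had a log2 fold change of 0.86 and was not called.

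A further list joined sterol export genes with targets of LXR, a receptor whose targets rise when sterols are plentiful. Of 11 tested genes on that list, 4 were higher and 0 lower. APOE, the lipoprotein of glia, had 1.26, 1.87 and 0.823 TPM in the U87 libraries and 10, 10.1 and 8.04 TPM in the GSC libraries. The lysosomal cholesterol exporters NPC1 (146 to 824 TPM) and NPC2 (39.4 to 145 TPM) and the receptor gene NR1H3 (11.6 to 36.7 TPM) were the others. The classical LXR target ABCA1 had 176 ± 10.2 TPM in U87 cells and 125 ± 4.63 TPM in GSCs (SD, n = 3) and was not called. Fatty acid synthesis had 5 of 19 tested genes higher and 0 lower, with a median of 0.60. SCD, the stearoyl-CoA desaturase, had 1512, 1858 and 1390.4 TPM in the U87 libraries and 4472, 4236 and 4688 TPM in the GSC libraries, and FASN, the fatty acid synthase, rose from 167 to 432 TPM. ACSS2, ACSL1 and FADS1 were the other called members, at 1.46, 1.45 and 1.21. In lipid storage and oxidation 5 of 20 were higher and 1, ANGPTL4, lower. FABP3 had 24.8, 27.9 and 19.3 TPM in the U87 libraries and 204, 202 and 207 TPM in the GSC libraries, and the epidermal fatty acid binding protein FABP5 went from 1.79 to 11.9 TPM. The coactivator PPARGC1A, MGLL and CPT1A, the carnitine palmitoyltransferase of mitochondrial import, rose by 1.38, 1.30 and 1.03.

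Amino acid transport and synthesis genes that ATF4 controls fell: 18 of 29 tested were called lower and 1 higher, with a median of -1.29, and their summed level went from 2972 to 3236 TPM in U87 down to 1320.5 to 1398 TPM in GSCs. SLC7A11, which imports cystine for glutathione, had 50, 42.3 and 52.1 TPM in the U87 libraries and 1.66, 0.99 and 1.52 TPM in the GSC libraries (chr4:138164097-138242349, log2 fold change -4.37, SE 0.16, adjusted p = 1.37e-07). PSAT1, an enzyme of serine synthesis, had 378, 395 and 269.6 TPM in the U87 libraries and 17.8, 18.1 and 23.4 TPM in the GSC libraries. CHAC1, which degrades glutathione, had 36.6, 25.4 and 53.8 TPM in the U87 libraries and 3.19, 4.59 and 1.54 TPM in the GSC libraries. In each of these the lowest U87 library stood well above the highest GSC library. TRIB3, a pseudokinase that feeds back on ATF4, fell from 35.4 to 2.92 TPM, VLDLR from 19.9 to 1.58 TPM and SESN2, an inhibitor of mTORC1, from 147 to 18.8 TPM. ATF4 itself had 407, 360.4 and 434 TPM in the U87 libraries and 213, 186 and 173 TPM in the GSC libraries, a log2 fold change of -1.07, and ATF3, another factor of the stress response, went up at 1.86. ASNS, the asparagine synthetase chosen after its values were seen because its promoter carries the motif, had 5.64, 3.39 and 5.82 TPM in the U87 libraries and 0.445, 0.481 and 0.204 TPM in the GSC libraries. The upstream 150 bases of ASNS are shown because they hold the letters TGATGNAA of the amino acid response element (capitals), and are from RefSeq on GRCh38.p14, chr7:97872409-97872558 on the minus strand, written 5′ to 3′.
ASNS: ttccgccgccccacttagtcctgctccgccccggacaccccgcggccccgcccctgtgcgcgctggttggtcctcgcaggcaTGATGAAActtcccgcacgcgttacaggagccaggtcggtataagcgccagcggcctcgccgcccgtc
Within 250 bases upstream of the start, on either strand, these letters occurred in 4 of 24 list members with a promoter sequence (ATF3, CHAC1, ASNS and FGF21) and in 3.19% of 27305 promoters. Among ER chaperones, another branch of the unfolded protein response, 1 of 22 was higher (DNAJB9, 1.16) and 0 lower, with a median of -0.09. DNAJB9 lies on chromosome 7, and the 10 tested genes on each side of it had a median of 0.83. Of 22 NRF2 targets 5 were lower (22.7%) and 2 higher (9.1%, near the 9.63% of all genes). GCLM (18.2 to 74.2 TPM) and HMOX1 (287 to 890.3 TPM) rose, and SLC7A11, AKR1B10 (14.5 to 3.84 TPM), AKR1C3 (7.83 to 2.83 TPM), NQO1 (98.6 to 42.6 TPM) and GSR fell. The neighbours of AKR1C3 had a median of -0.72.

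**Figure D3:**
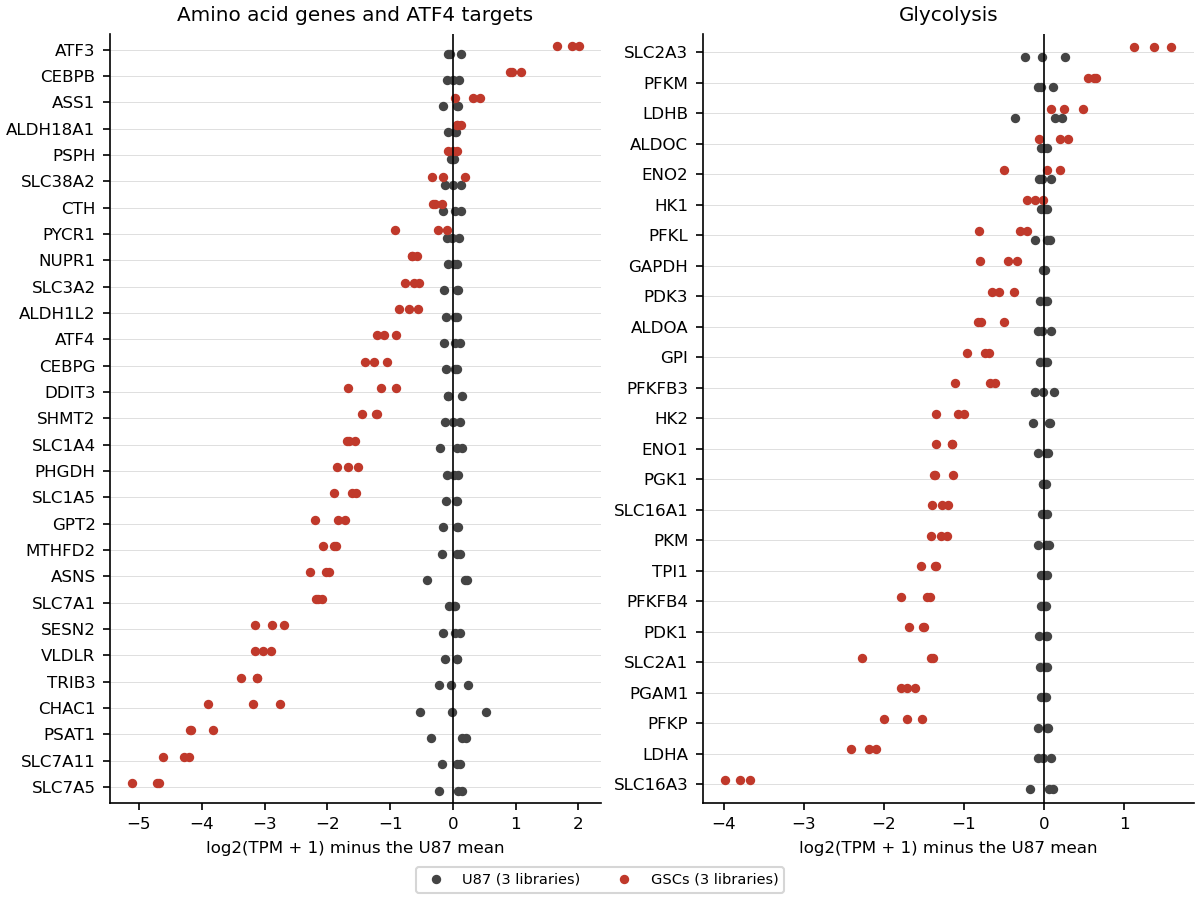
Log2(TPM + 1) of each library minus the U87 mean for amino acid genes under ATF4 and for glycolysis genes, 1 point per library. Most GSC points lie left of 0, with medians over the genes of -1.29 and -1.14, and ATF3 and SLC2A3 lie to the right.

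Many transcripts of glycolysis fell. Of 25 genes 13 were called lower and 1 higher, the median was -1.14, and the summed level was 13854 to 14308 TPM in U87 and 6387 to 7970.5 TPM in GSCs. The glucose transporter SLC2A1 had 231, 226 and 217 TPM in the U87 libraries and 84, 85.6 and 45.8 TPM in the GSC libraries. LDHA, which turns pyruvate into lactate, had 1195, 1137 and 1278 TPM in the U87 libraries and 264, 226 and 279.9 TPM in the GSC libraries, and SLC16A3, the lactate exporter MCT4, had 48.6, 41.2 and 50.1 TPM in the U87 libraries and 2.42, 2.73 and 2.0 TPM in the GSC libraries. For these 3 genes every GSC library lay below every U87 library. Between them in the pathway, PFKP (-1.74, among neighbours with a median of -0.75), TPI1 (-1.42), PGAM1 (-1.70), ENO1 (-1.22) and PKM (-1.30) were called, and GAPDH had 4419, 4407 and 4355 TPM in the U87 libraries and 3466, 3214 and 2518 TPM in the GSC libraries, a difference of -0.53 short of the threshold. PDK1, a kinase that inhibits pyruvate dehydrogenase, was lower at -1.56. The gene called higher was SLC2A3, another glucose transporter, chosen for mention as the exception (108 to 277 TPM). Diff cells had 242, 228 and 244 TPM of LDHA. Targets of hypoxia signaling overlap with these, and 11 of 24 were lower and 0 higher, with a median of -0.56. CA9, a carbonic anhydrase of hypoxic cells, fell from 417 to 112 TPM, BNIP3 from 283 to 47.7 TPM, the mTORC1 inhibitor DDIT4 from 622 to 127 TPM, the oxygen sensor EGLN1 from 35.6 to 8.74 TPM and STC2 from 97 to 30.7 TPM. The neighbours of EGLN1 had a median of -0.63. The HIF core letters ACGTG were found in 9 of 23 glycolysis promoters and 9 of 20 hypoxia promoters, against 18.7% of all promoters and 12 of 34 promoters of mitotic genes. Of 39 nuclear genes of oxidative phosphorylation 1 (SDHD, 1.13) was higher and 0 lower, with a median of -0.15, and none of 13 genes of the mitochondrial genome was called (median 0.14). Beside SDHD, the 10 genes on each side had a median of 0.49.

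Genes of mitosis fell, while few genes of DNA replication were called. Of 38 tested mitotic genes 21 were called lower and 0 higher, all 38 lay below 0, and the median was -1.07. Of 41 replication genes 2 were lower and 0 higher, with a median of 0.13. The summed level of the mitotic genes was 3462 to 3839 TPM in U87 and 1507 to 1682 TPM in GSCs, whereas that of the replication genes was 1729.7 to 1844 and 1679 to 1809 TPM and overlapped. PLK1, a kinase of mitotic entry, had 127, 115 and 132 TPM in the U87 libraries and 26.3, 29.9 and 29.3 TPM in the GSC libraries. CCNB1, the mitotic cyclin, had 276, 269 and 284 TPM in the U87 libraries and 67, 67.4 and 83.9 TPM in the GSC libraries. CDC20, which activates the anaphase-promoting complex, had 270.5, 223 and 256 TPM in the U87 libraries and 67, 72.5 and 60.5 TPM in the GSC libraries. In all 3 the GSC libraries lay below the U87 libraries. CENPF and CENPE, kinetochore proteins, and the spindle protein ASPM had the largest falls on the list, at -2.44, -2.27 and -2.09. The neighbours of CENPF had a median of -0.61. On the replication side, the helicase subunit MCM6, named after its values were seen, had 83.2, 77.8 and 81.4 TPM in the U87 libraries and 69.7, 72 and 82.5 TPM in the GSC libraries, and EZH2, also an E2F target, 29.5, 28.9 and 30.7 TPM in the U87 libraries and 35, 34.1 and 39.1 TPM in the GSC libraries. TK1, thymidine kinase of nucleotide supply, was called lower at -1.31. Of 24 tested genes on a list of replication-dependent histones, linker histones included, 6 were lower and 0 higher (median -0.70), among them H3C10 (-1.83) and H2BC14 (-1.61). Histone genes are near copies of each other and most of their mRNAs lack poly(A) tails, so the level depends on the library preparation.

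Promoters of a few of these genes are printed to show the elements that such genes are known for. The cell cycle genes homology region, with the core TTTGAA, and the E2F site TTTCGCGC, are the textbook elements of mitotic and of replication genes. The 150 bases upstream of the RefSeq start on GRCh38.p14 are given 5′ to 3′ for PLK1 (chr16:23678739-23678888 on the plus strand), CDC20 (chr1:43358831-43358980 on the plus strand), CENPA (chr2:26785906-26786055 on the plus strand) and MCM6 (chr2:135876444-135876593 on the minus strand). Capitals mark TTTGAA, on either strand, in the first 3, and TTTCGCGC, on either strand, in MCM6.
PLK1: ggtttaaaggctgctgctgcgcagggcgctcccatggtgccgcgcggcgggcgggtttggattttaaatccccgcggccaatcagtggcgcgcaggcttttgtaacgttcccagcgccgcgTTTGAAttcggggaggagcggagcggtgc
CDC20: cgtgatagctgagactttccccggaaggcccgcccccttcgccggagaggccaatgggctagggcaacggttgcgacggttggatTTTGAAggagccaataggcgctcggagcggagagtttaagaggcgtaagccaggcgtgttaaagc
CENPA: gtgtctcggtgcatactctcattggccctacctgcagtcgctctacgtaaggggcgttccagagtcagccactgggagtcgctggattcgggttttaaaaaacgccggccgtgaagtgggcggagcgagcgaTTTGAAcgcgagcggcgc
MCM6: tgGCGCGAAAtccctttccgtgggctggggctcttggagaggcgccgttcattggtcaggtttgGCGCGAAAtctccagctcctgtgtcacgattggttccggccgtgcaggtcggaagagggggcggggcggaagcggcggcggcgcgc
TTTGAA occurred within 250 upstream bases in 20 of 34 mitotic genes with a sequence (58.8%), in 1 of 36 replication genes and in 13.6% of all 27305 promoters. TTTCGCGC occurred in 3 of 36 replication genes, 0 of 34 mitotic genes and 0.469% of all. The motifs were searched after the values were seen, 7 motifs in all on both strands, and a match is a description of the letters, not evidence that a factor is bound. For the sterol genes the CCAAT box, the NF-Y element beside sterol response elements, was in 15 of 18 promoters (83.3%) against 33% of all, and in 27 of 34 mitotic genes (79.4%). The letters TCACCCC of the sterol response element were in 2 of 18 and in 4.55% of all. HMGCS1, which is shown for the CCAAT box in capitals, read on the opposite strand as ATTGG (chr5:43313413-43313562 on the minus strand), rose by 1.75.
HMGCS1: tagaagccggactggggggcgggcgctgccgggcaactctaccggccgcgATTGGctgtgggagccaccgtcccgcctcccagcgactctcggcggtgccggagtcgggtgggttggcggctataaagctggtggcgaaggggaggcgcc

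BMP signaling genes changed among targets, antagonists and receptors. Of 24 tested genes 9 were lower and 4 higher. Among the targets, ID1 and ID3 are given above with the largest decreases, ID2 fell from 93 to 15.4 TPM and the inhibitory SMAD6 from 14.1 to 1.9 TPM. ID4, SMAD7, SMAD9, ATOH8 and ENG were the other lower members, at -1.94, -1.19, -2.13, -1.92 and -1.08. Of the secreted antagonists, NOG (noggin) had 0.868, 0.603 and 0.529 TPM in the U87 libraries and 21.6, 19.1 and 22.7 TPM in the GSC libraries, and GREM1 (gremlin) had 29.9, 28.4 and 30.3 TPM in the U87 libraries and 260.1, 243 and 303 TPM in the GSC libraries. The third, FST (follistatin), had 8.44, 6.5 and 7.08 TPM in the U87 libraries and 20.8, 19 and 24.2 TPM in the GSC libraries, and the receptor BMPR1B rose by 1.26. Among the ligands, BMP4 had 0.11 ± 0.0783 TPM in U87 cells and 0.0438 ± 0.0423 TPM in GSCs and BMP2 2.49 ± 0.434 TPM in U87 cells and 4.08 ± 0.911 TPM in GSCs (SD, n = 3), of which BMP2 was tested and not called. Diff cells had 46.8, 55.7 and 54.6 TPM of ID3, 0.182, 0.143 and 0.432 TPM of NOG and 69.2, 60.5 and 54.6 TPM of GREM1. The list of TGF-beta targets had 4 of 16 lower and 1 higher and a median of -0.64. Beside TGFBI, these were LTBP3, a protein that stores latent TGF-beta (102 to 16.9 TPM), PMEPA1 (5.35 to 1.03 TPM) and the receptor TGFBR2 (139.9 to 50 TPM), and the coreceptor TGFBR3 rose from 3.54 to 15.3 TPM.

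**Figure D4:**
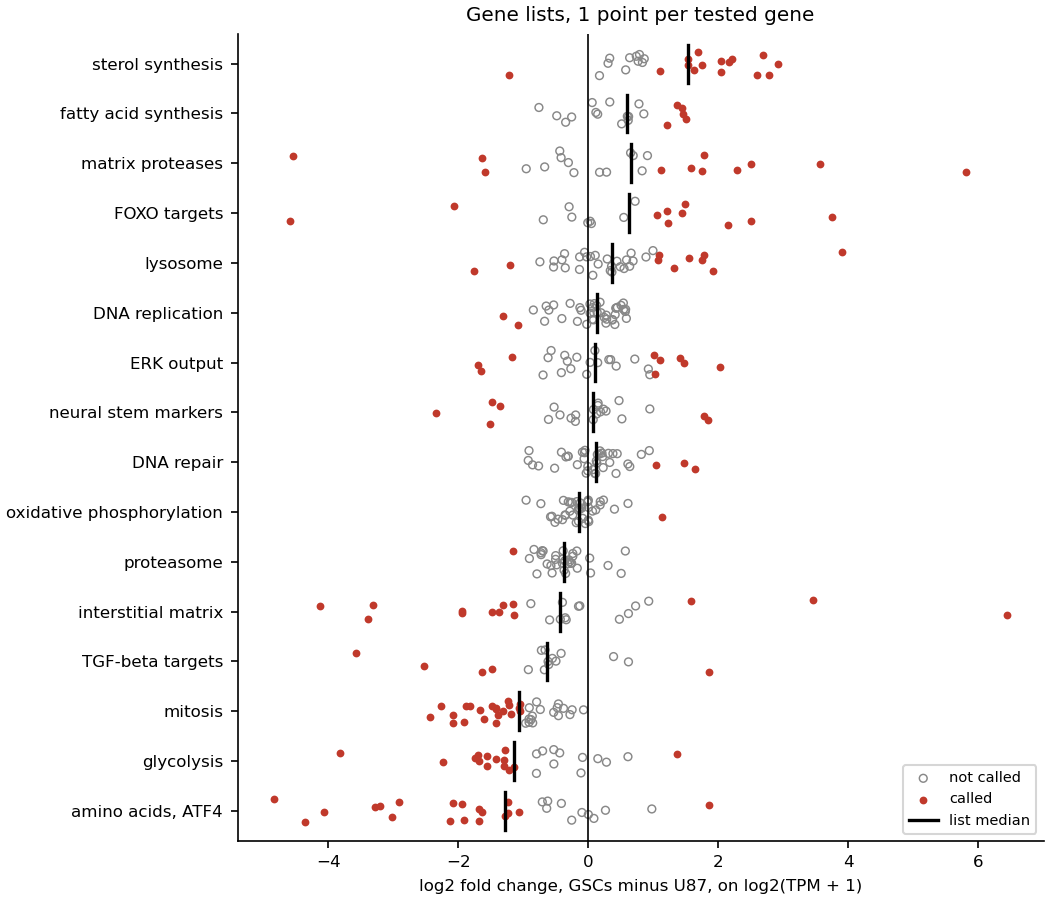
Log2 fold changes of GSCs against U87 for each tested member of 16 gene lists, 1 point per gene, filled where called, with the list median as a bar. Sterol synthesis lies right of 0 (median 1.53), amino acid genes under ATF4, glycolysis and mitosis lie left (medians -1.29, -1.14 and -1.07), and DNA replication is centred at 0.13.

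Among SRF targets of the contractile cytoskeleton, which report on attachment and tension, 2 of 21 were called lower (MYL6 at -1.20 and TPM1 at -1.03) and 0 higher. That share is near the background, and 17 of 21 lay below 0, with a median of -0.26. YAP targets had 6 of 21 lower (28.6%) and 2 higher (9.5%, near the 9.63% of all genes), with a median of -0.48. AJUBA fell from 18.9 to 1.59 TPM and ARHGEF17 from 8.59 to 0.972 TPM, while CCN3 (14.2 to 99.7 TPM) and AMOTL1 (16.4 to 42.7 TPM, among neighbours with a median of 0.68) rose. The canonical targets CCN1 and CCN2 had log2 fold changes of -0.16 and -0.50 and were not called. Integrin genes changed in both directions, 5 higher and 5 lower of 15. ITGB8, which activates latent TGF-beta (3.1 to 16.4 TPM), ITGB3 (68.2 to 242 TPM) and ITGB4 (0.748 to 3.83 TPM) rose, and ITGB1, the common beta subunit, had 149, 136 and 146 TPM in the U87 libraries and 57.5, 52.8 and 62.5 TPM in the GSC libraries. ITGA6 and ITGA4 also fell, at -1.51 and -1.36. The genes beside ITGB1 had a median of -0.64.

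Of 25 tested genes of the interstitial matrix 10 were lower and 3 higher. COL1A1, the main chain of type I collagen (chr17:50183289-50201632), had 500.4, 452 and 539.9 TPM in the U87 libraries and 27.6, 31.6 and 23.9 TPM in the GSC libraries, a log2 fold change of -4.12 (SE 0.10, adjusted p = 2.24e-08). Its partner COL1A2 had 249, 226 and 262 TPM in the U87 libraries and 149, 162 and 175 TPM in the GSC libraries, a log2 fold change of -0.60 that was not called, and in Diff cells COL1A1 was at 150.5, 159.6 and 159.7 TPM. These 2 chains assemble into the same fibres. COL5A1 fell from 181 to 17.5 TPM, the crosslinking enzyme LOXL2 from 345 to 32.4 TPM and fibrillin-1 (FBN1) from 333 to 85.2 TPM. The neighbours of LOXL2 had a median of -1.145. COL11A1, a fibrillar collagen of cartilage, rose from 0.284 to 13.1 TPM, as did FBLN5. In the basement membrane 3 of 16 were higher and 2 lower: the laminin chains LAMA1 (2.29 to 34.1 TPM), LAMA4 (6.79 to 28.5 TPM) and LAMB1 (48.3 to 138 TPM) rose, and LAMC1 and LAMA3 fell by 1.16 and 1.02. LAMB1 lies on chromosome 7, where its neighbours had a median of 0.82. Matrix proteases and their inhibitors had 8 of 23 higher and 3 lower. Of the proteases, the collagenase MMP1 had 2.65, 1.9 and 1.02 TPM in the U87 libraries and 30.8, 26.5 and 39.4 TPM in the GSC libraries, and MMP3, its neighbour on chromosome 11, is given above. The tested genes beside MMP1 and MMP3 had medians of 0.83 and 0.91. ADAMTS5 (7.94 to 48.9 TPM), MMP11 (0.919 to 8.35 TPM), ADAMTS1 (60.1 to 209 TPM) and MMP14 also rose. TIMP3 was the inhibitor with the largest fall. In cell junctions 6 of 18 were higher and 1 lower. ICAM1, the adhesion receptor for leukocyte integrins and an NF-κB target, had 3.5, 3.68 and 2.57 TPM in the U87 libraries and 35.8, 35 and 33.8 TPM in the GSC libraries. The cadherin CDH18 (2.49 to 33.7 TPM), NECTIN1 (3.31 to 15.8 TPM, among neighbours with a median of 0.88), plakoglobin (JUP, 0.431 to 2.83 TPM) and desmoglein-2 (DSG2, 9.99 to 26.8 TPM, among neighbours with a median of 0.77) rose, and the gap junction gene GJB2 fell (54.3 to 5.37 TPM).

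EGFR, the receptor for the EGF in the GSC medium (chr7:55019021-55211628), had 117, 116 and 109.9 TPM in the U87 libraries and 135, 134 and 132 TPM in the GSC libraries. The groups did not overlap, but the log2 fold change was 0.23 and the gene was not called. Its neighbours on chromosome 7 had a median of 0.76. Genes that report on ERK activity downstream of EGF and FGF receptors went both ways, 6 higher and 3 lower of 27, with a median of 0.10. FOS had 7.53, 7.65 and 5.01 TPM in the U87 libraries and 31.8, 40.5 and 20.9 TPM in the GSC libraries, the ERK phosphatase DUSP6 rose from 54.2 to 151 TPM and the feedback inhibitor SPRY2 from 79.9 to 214 TPM. SPRY4 (71.2 to 31 TPM), EPHA2 (27.1 to 7.89 TPM) and IL1RAP (10.3 to 2.5 TPM) fell. Growth factors, receptors and binding proteins had 4 of 28 higher and 6 lower. The EGFR ligand TGFA had 36.6, 31.8 and 39.7 TPM in the U87 libraries and 3.1, 2.42 and 4.27 TPM in the GSC libraries, and NRG1, a ligand of ERBB3 and ERBB4, fell from 15.9 to 2.26 TPM. IGFBP3, which sequesters IGF, had 628, 647 and 543 TPM in the U87 libraries and 60.1, 46 and 37.7 TPM in the GSC libraries, and PDGFRB fell from 56.6 to 12.1 TPM. IGFBP4 rose from 40.8 to 146 TPM. IGFBP3 and IGFBP1 are neighbours on chromosome 7 in a stretch whose genes had a median of 0.92, so these 2 fell where their surroundings were higher.

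FOXO targets, which rise when insulin and PI3K signaling is low, had 8 of 18 higher and 2 lower, with a median of 0.63. FBXO32, a ubiquitin ligase of muscle wasting, had 5.77, 6.76 and 5.48 TPM in the U87 libraries and 88.4, 95.6 and 93.9 TPM in the GSC libraries, BCL6 rose from 17.5 to 105 TPM, KLHL24 from 3.38 to 18.5 TPM and CITED2 from 120.3 to 338 TPM. The insulin receptor INSR and its substrate IRS2 were also called, at 1.22 and 1.05. IGFBP1, a textbook FOXO target, and SESN3 (4.8 to 0.376 TPM) went down. Other lists bore on ingredients of the medium. Glucocorticoid targets had 4 of 15 higher and 2 lower: GLUL, KLF9 (2.92 to 16.9 TPM), HSD11B1 (0.631 to 4.41 TPM) and CEBPD (11.8 to 29.5 TPM) rose, ANGPTL4 and ERRFI1 (398 to 72.6 TPM) fell, and FKBP5 had 2.54 ± 0.272 TPM in U87 cells and 5.6 ± 1.07 TPM in GSCs (SD, n = 3) and was not called, although it was called with log2(TPM + 0.1), at 1.10. Selenoproteins had 1 of 20 lower, the plasma glutathione peroxidase GPX3 (8.23 to 1.19 TPM), and 0 higher. Iron handling had 4 of 10 higher and 1 lower, with FTL, HMOX1, SLC11A2 (1.16) and ACO1 (1.12) up and SLC39A14 (-1.54, beside a median of -1.05 for the 10 tested genes on each side) down, and the transferrin receptor TFRC had 39.9, 39.3 and 39 TPM in the U87 libraries and 46.8, 46 and 58.6 TPM in the GSC libraries. Retinoid handling had 2 of 14 higher and 4 lower. There CRABP2 (137 to 32.6 TPM), the retinoic acid hydroxylase CYP26B1 (3.09 to 0.176 TPM) and the receptor RARG (43.6 to 17.5 TPM) fell with DHRS3, and ALDH1A2 and RDH10 rose by 1.21 and 1.18.

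Genes of developmental signaling moved in both directions. Axon guidance had 8 of 30 higher and 9 lower. UNC5B and the semaphorin receptor PLXNA2 (26.5 to 0.578 TPM) fell far, and the ephrin EFNB2 fell from 67 to 12.5 TPM, while EPHA7 (0.185 to 5.81 TPM), NRP2 (48.3 to 227 TPM) and SEMA3F (0.131 to 3.71 TPM) rose. The neighbours of PLXNA2 had a median of 1.15, in the opposite direction to PLXNA2. NRP1, the relative of NRP2, had 271, 266 and 266 TPM in the U87 libraries and 68.8, 71.7 and 84.6 TPM in the GSC libraries and was called lower at -1.83, so the 2 neuropilins went opposite ways. The WNT list had 4 of 26 higher and 4 lower. The receptor FZD8 had 4.62, 6.23 and 3.16 TPM in the U87 libraries and 70.6, 71.5 and 72.9 TPM in the GSC libraries, RNF43, a ligase that removes frizzled receptors, rose from 0.109 to 7.96 TPM, the agonist RSPO3 from 1.04 to 13.7 TPM and the target SP5 from 1.86 to 7.19 TPM. WNT5A and WNT5B, ligands of the non-canonical branch, fell by 1.26 and 1.38. AXIN2, a standard readout of beta-catenin, had 2.71 ± 0.26 TPM in U87 cells and 1.83 ± 0.134 TPM in GSCs (SD, n = 3), a log2 fold change of -0.39. In the Notch list 3 of 11 were lower (27.3%) and 1 higher (9.1%, near the 9.63% of all genes). NOTCH3 had 70.9, 59.3 and 71.4 TPM in the U87 libraries and 7.21, 7.23 and 5.91 TPM in the GSC libraries, the ligand JAG1 fell from 11.3 to 3.13 TPM, HEY2 from 1.85 to 0.296 TPM, and JAG2 rose from 0.501 to 3.3 TPM. HES1 had means of 1.96 and 0.94 TPM and was not called, but passed the threshold with log2(TPM + 0.1), at -1.04. Of 10 transcription factors of epithelial-mesenchymal transition 2 were lower, TWIST1 (-1.21) and TCF4 (-1.09), and 0 higher.

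The study reports NF-κB pathway activation, by gene set enrichment, in Diff cells and in recurrent tumours. The subunit genes were looked at first, as mRNA of GSCs against U87, so their values do not bear on that report. RELA had 103, 95.8 and 95.8 TPM in the U87 libraries and 86.7, 94.8 and 72.9 TPM in the GSC libraries, NFKB1 had 7.34 ± 0.422 TPM in U87 cells and 8.88 ± 0.245 TPM in GSCs and BCL2 1.15 ± 0.139 TPM in U87 cells and 1.49 ± 0.124 TPM in GSCs (SD, n = 3), none called. Of 21 tested genes on a list of subunits, regulators and targets of the pathway, 4 were higher and 2 lower. BCL2A1, an antiapoptotic BCL2 relative, had 0.758, 0.435 and 0.127 TPM in the U87 libraries and 44.1, 32.2 and 37.8 TPM in the GSC libraries. TNFAIP3 (A20), which shuts the pathway off, rose from 7.55 to 27.8 TPM and SOD2 from 14.1 to 47.3 TPM, ICAM1 is given above, and IKBKE and TNIP1 fell by 1.35 and 1.14. The letters GGAATTTCC were in 5 of 21 list members with a promoter sequence (REL, NFKB1, NFKBIA, NFKBIZ and ICAM1) and in 0.428% of all promoters. Of these genes, ICAM1 alone was called. Cytokines and chemokines had 4 of 15 higher and 1 lower. IL24 had 0.686, 0.874 and 0.704 TPM in the U87 libraries and 24.1, 23.1 and 22.4 TPM in the GSC libraries, CSF1 rose from 59.1 to 135 TPM, IL33 from 0.979 to 3.48 TPM and CSF3 from 61.2 to 136 TPM, and CXCL3 fell from 3.94 to 1.36 TPM. IL6, a cytokine, had 4.82, 4.54 and 4.28 TPM in the U87 libraries and 2.25, 2.6 and 2.27 TPM in the GSC libraries, lower without a call at -0.72. Interferon-stimulated genes had 4 of 30 higher (13.3%, against 9.63% of all genes) and 1 lower, with a median of -0.04 and 17 of 30 below 0. Those higher were IFITM2, HERC5, HERC6 and STAT2, at 2.15, 1.70, 1.45 and 1.30, and IFI44L was lower at -1.71. None of 16 antigen presentation genes was called, and the median was -0.13.

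DNA repair genes, of interest in irradiated cells, had 3 of 40 higher, a share near the 9.63% of all genes, and 0 lower. ATM, the kinase that responds to double-strand breaks (chr11:108222484-108369102), had 5.79, 5.37 and 5.27 TPM in the U87 libraries and 16.6, 15 and 19.2 TPM in the GSC libraries, a log2 fold change of 1.46 (SE 0.10, adjusted p = 4.89e-06). MRE11, part of the complex that brings ATM to breaks (chr11:94415578-94493908), rose from 4.0 to 14.7 TPM, and the checkpoint kinase CHEK1 (chr11:125625136-125676255) from 9.39 to 20.5 TPM. All 3 lie on chromosome 11, and the 10 tested genes on each side of them had median log2 fold changes of 0.58, 0.64 and 0.49, above the 0.01 of all genes. The part of these surrounding stretches in the 3 changes was not tested. The median of the 40 was 0.12.

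Lysosomal genes had 8 of 38 higher and 2 lower (median 0.35), with a summed level of 2902 to 3210.3 TPM in U87 and 5209.6 to 5301 TPM in GSCs. CTSK, the collagen-degrading cathepsin, had 39.5, 40.7 and 34.5 TPM in the U87 libraries and 587, 524 and 652 TPM in the GSC libraries. ASAH1, the acid ceramidase (17.3 to 68.5 TPM), TPP1 (158 to 539.7 TPM), CTSF (5.3 to 20.1 TPM) and CTSL (61.7 to 182 TPM) also rose, while the lysosomal gene regulator MITF fell from 4.11 to 0.509 TPM. Proteasome subunits, the target of bortezomib, had 1 of 34 lower (PSMC3, 67.4 to 29.6 TPM) and 0 higher. Single differences were small, and 29 of 34 lay below 0, the median was -0.38, and the summed level was 2487 to 2659.8 TPM in U87 and 1829 to 1845 TPM in GSCs, without overlap. Of 7 tested noncoding RNAs, nuclear or structural, the paraspeckle RNA NEAT1 (224, 236 and 164 TPM in the U87 libraries and 784, 779 and 671 TPM in the GSC libraries) and MALAT1 (log2 fold change 1.75) rose, and the imprinted RNA MEG3 fell from 3.62 to 0.00843 TPM.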

How the data were processed

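RNA of 3 U87, 3 GSC and 3 Diff libraries was measured. Per the deposited table, the authors had turned reads into TPM and stored them as log2(TPM + 1), with 60606 genes and 1000000 TPM per library. The submitters' processing notes name Trimmomatic 0.39, HISAT2 2.2.1, featureCounts 2.0.5 and GRCh38. The sample records describe rRNA removal with directional libraries, the paper oligo(dT) enrichment, which matters for histone and noncoding RNAs. Replicate depth cannot be read from TPM, and reads shared by gene copies may be split arbitrarily.

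Genes with a mean TPM over 1 in the 6 libraries were tested with limma 3.58.1 (R 4.3.3, trend) in a fit of all 9 libraries, GSCs minus U87, with Benjamini-Hochberg adjustment over all 23170 genes and a pseudocount of 1. The adjusted p-values in the text are from limma. Coordinates are from GENCODE 29 and promoter sequences from RefSeq. In simulated data of 23170 genes, 172 of 200 genes moved by 2 were recovered, with 0 calls among the unmoved genes. The simulated noise was normal and independent between libraries, so the result does not cover error from shared shifts or technical replicates.

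The comparison, the 51 gene lists and the tests were chosen with earlier results of these data known. Named genes were the 15 largest increases and decreases among called, separated protein-coding genes, the 10 largest gains and losses of TPM, up to 6 called members per list, markers, genes the study names, and genes under 0.1 TPM in one line and over 5 in the other. Other genes named, such as further called list members and standard readouts of a pathway, were chosen after their values were seen. Results of some genes are not reported here, while list counts include every tested member.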

Additional observations from a re-analysis of the deposited data

How the results depend on the processing

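Of 2232 genes higher and 1801 lower, the counts were 965 and 742 with log2(TPM + 5), 1286 and 1019 with a mean TPM over 5 (fewer genes tested), 5862 and 5452 by adjusted p alone, and 626 and 368 at an absolute log2 fold change over 2. Omitting 1 library in turn gave 2139 to 2316 higher and 1717 to 1849 lower. The replicate block gave 2236 and 1805. Same-numbered libraries did not deviate together (r = 0.02, -0.003 and -0.02), so the numbers were not taken as pairs. The median of all genes moved by less than 0.1 under every scaling tried.

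Of the genes in the text, CCN1 (0.13) and CD44 (-0.0018) changed sign without GSCs replicate 3, neither being called, and ranged from -0.33 to 0.13 and from -0.0018 to 0.12 over the omissions. Calls near the fold threshold were lost without that library for ATF4 (-0.999), CHEK1 (0.95), IL33 (0.998) and SDHD (0.98), and gained for MYC (1.07) and COL6A2 (1.08). Calls were also gained with log2(TPM + 0.1) for HES1 (-1.04), FKBP5 (1.10) and GFAP (-1.40), and for GFAP (-1.03) with TPM rescaled without mitochondrial genes and RN7SL1. CHEK1 was also lost without U87 replicate 2 (0.97), CXCL3 without U87 replicate 1 (-0.997) and GSCs replicate 2 (-0.99), IRS2 without U87 replicate 3 (0.96) and GSCs replicate 2 (0.96), and LAMA3 (-0.91) and TPM1 (-0.99) without GSCs replicate 2. With log2(TPM + 5), 41 calls fell under the threshold, POU3F2 and FABP7 among them. Of 51 list medians, 7 changed sign at a mean TPM over 5, 5 with no filter and 3 under quantile normalization, with shifts of at most 1.13, 1.21 and 0.24. At a mean TPM over 5 that of the astrocyte markers went from -0.34 to 0.79 and that of the stem markers from 0.08 to -0.10. That of the endothelial markers went from 1.18 to -0.03 with no filter, and that of the mitochondrial genome from 0.14 to -0.09 under quantile normalization. The epithelial markers had no tested member at a mean TPM over 5. The cause was not tested. TPM keeps no depth, so counting error could not be given.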
